A study of Mus musculus with 61 samples.

Results

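The values of 10 genes that mark definitive endoderm, notochord and simple epithelium were followed through mouse stembryos. The genes were Sox17, Foxa1, Foxa2, Foxa3, Shh, Noto, Krt8, Krt18, Trh and Cldn6, chosen by name and found once each among 55052 genes. Stembryos, or gastruloids, form when mouse embryonic stem (mES) cells aggregate, receive a pulse of the Wnt agonist Chiron and then elongate. RNA-seq covered 61 libraries in 28 conditions. The wild-type time course had 2 libraries at each of 72, 84, 96, 108, 120, 132, 144 and 168 h after aggregation. Wild-type (wt) libraries made outside the time course served as controls of the mutants, 4 of them at 96 h, 4 more at 120 h and 2 at 144 h. All mutants carried changes in or beside the HoxD cluster. Del(CBS1), Del(CBS2), Del(CBS1-2), Del(CBS4) and Del(CBS1-5) lacked the named binding sites of CTCF, a protein at which chromatin loops stop. Del(d1-d4) lacked the segment from Hoxd1 to Hoxd4, Del(sub-TAD1) lacked a flanking regulatory domain, and Ins(2xCBS-d4d8) carried a pair of added CTCF sites beside CBS1. A mutant had 2 libraries at each of its stages, and Del(sub-TAD1) had 3 at 96 h.

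The lines limit what a difference between a mutant and its control can stand for. Wild-type cells were of the EmbryoMax 129/SVEV line and most mutants were homozygous CRISPR clones, Del(CBS1-2) being made on top of Del(CBS1) cells. Cells of Del(CBS1-5) and of Del(sub-TAD1) instead came from blastocysts of mutant mice, and the latter also carry a fosmid transgene with Mtx2, a gene inside the deletion. For these mutants, the mutation and the origin of the line cannot be told apart. From 108 h on the study collected elongating stembryos only, and all stembryos of a library were pooled. The study calls its replicates biological and the libraries of its mutants independent samples. The labels do not say which came from separate cultures, so p-values measure the spread between these samples. Because the RNA is bulk, fewer cells of a type and less RNA per cell cannot be told apart.

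In the gastrula, definitive endoderm and the axial mesoderm of the node and notochord leave the anterior primitive streak under Nodal and Wnt signals. Foxa2, a forkhead pioneer factor, acts in both lineages. Sox17 is a transcription factor of endoderm that endothelium also uses, and Foxa1 and Foxa3 follow in the gut tube. Noto, a homeobox factor, marks the node and the notochord, and Shh is the hedgehog ligand made by notochord, floor plate and gut endoderm. Krt8 and Krt18 are the paired keratins of simple epithelia, Cldn6 is a claudin of the tight junctions of embryonic epithelia, and Trh encodes the precursor of thyrotropin-releasing hormone. Hedgehog ligands bind receptors such as Ptch1, which frees Smo and lets Gli factors act, and Ptch1, Gli1 and Hhip are among the targets that the pathway itself raises.

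Values were FPKM, fragments scaled by transcript length and by all mapped fragments. The inferred depth was 14.4 to 37.3 M (mega) fragments, 23.0 M in the median library. Tests used log2(FPKM + 0.1) and covered the 17098 genes with a mean of at least 1 FPKM in at least 1 condition. A gene is said to have changed where the adjusted p of limma was under 0.05. The 61 libraries fell into 2 sets by their mitochondrial mRNA, 28 with high and 33 with low levels, with a gap of 1.41 on the log2 scale between them. Wt replicates 1 to 3 at 96 and 120 h were in the high set, as were Del(CBS1), Del(CBS2), Del(CBS1-2), Del(d1-d4), Del(CBS1-5) at 96 and 120 h and Del(sub-TAD1) at 120 h. All other libraries were in the low set, wt replicate 4 included. Where a count of calls changed against controls of the same set, that count stands beside it. The part of the sets in the results was not tested. The share of all genes called with those controls was not computed. Nor was the share of all genes lying wholly above or below the libraries they were compared with, so such counts have no background.

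The members spanned a wide range of levels per transcript length. Trh was the most abundant, between 2.76 and 457 FPKM with a median of 58.6 over the 61 libraries, and it reached 1 FPKM in all of them. Cldn6 lay between 0.538 and 75.9 FPKM, Krt8 between 0.614 and 34.4 FPKM and Krt18 between 0.967 and 43.1 FPKM. Foxa2 ranged from 0.0510 to 19.2 FPKM, Foxa1 from 0.147 to 9.99 FPKM and Sox17 from 0 to 10.8 FPKM. Shh and Noto were low in most libraries, with medians of 0.241 and 0.260 FPKM, and each reached 1 FPKM in 11 libraries. Foxa3 never reached 1 FPKM. Its highest value was 0.910 FPKM, so that it did not pass the filter on low values, and 9 of the 10 members were tested.

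Sox17 lies on chromosome 1 from 4490931 to 4497354 and Foxa2 on chromosome 2 from 148042877 to 148046969, in the mm10 build of the files, both on the minus strand. Foxa1 is on chromosome 12 from 57540628 to 57546121, Foxa3 on chromosome 7 from 19013284 to 19023538 and Shh on chromosome 5 from 28456815 to 28467256, all on the minus strand. Noto is on the plus strand of chromosome 6 from 85423886 to 85428877. Trh is on the minus strand of the same chromosome from 92242061 to 92244650. Krt8, from 101996698 to 102004482 on the minus strand, and Krt18, from 102028180 to 102032027 on the plus strand, are neighbours on chromosome 15. Cldn6 is on the plus strand of chromosome 17 from 23679249 to 23682446. All values are of whole genes. Antisense genes overlap Sox17, Shh and Krt8. The libraries were stranded, but Cufflinks was run with default parameters, whose library type is unstranded, so that reads from these pairs may not have been told apart. Krt8 and Krt18 have near-identical processed copies in the genome, which makes their levels from reads with 1 place uncertain.

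The sequences of 3 promoters are shown, those of Foxa1, Foxa2 and Noto, factors of this set that changed together in some comparisons. Sox17, also a factor, had no promoter available, and that of Foxa3, which did not pass the filter, is not shown. Each is the 250 bases before a start site in RefSeq, GRCm38.p6, which gave promoters for 8 of the 10 members, at 10 start sites. Foxa2 has 3 of these, and the first is shown. The motifs searched on both strands were the forkhead motifs TGTTTAC and TGTTTGC, the SOX motif CATTGT, the T-box motif TCACACC and the GLI motif GGGTGGTC, and capitals mark each match. The Foxa1 stretch is chr12:57546112-57546361 (minus), the Foxa2 stretch chr2:148046970-148047219 (minus) and the Noto stretch chr6:85423636-85423885 (plus).
Foxa1: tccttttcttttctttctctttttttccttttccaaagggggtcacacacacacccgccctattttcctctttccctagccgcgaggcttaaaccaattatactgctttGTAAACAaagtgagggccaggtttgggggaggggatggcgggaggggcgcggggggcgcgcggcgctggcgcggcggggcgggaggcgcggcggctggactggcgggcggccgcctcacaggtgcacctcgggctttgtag
Foxa2: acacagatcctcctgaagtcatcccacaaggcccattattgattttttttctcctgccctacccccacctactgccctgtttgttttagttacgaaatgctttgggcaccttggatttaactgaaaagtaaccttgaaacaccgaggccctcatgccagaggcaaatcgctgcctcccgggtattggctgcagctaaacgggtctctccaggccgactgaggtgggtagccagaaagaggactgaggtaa
Noto: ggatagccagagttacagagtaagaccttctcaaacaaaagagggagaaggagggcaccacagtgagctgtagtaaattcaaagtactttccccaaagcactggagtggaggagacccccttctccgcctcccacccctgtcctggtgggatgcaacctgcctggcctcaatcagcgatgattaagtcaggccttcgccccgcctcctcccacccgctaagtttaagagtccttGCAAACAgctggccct
The Foxa1 stretch held the reverse complement of TGTTTAC, which starts 141 bases before the start site. The Noto stretch held the reverse complement of TGTTTGC, 16 bases before it. Of all 32817 promoter stretches of this length, 3.16% held TGTTTAC, 4.3% TGTTTGC, 10.7% CATTGT, 3.33% TCACACC and 0.704% GGGTGGTC. The Foxa2 stretch held none of these letters, and neither did those of its other start sites or of the other 5 members with a promoter.

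In the time course, 8 of the 9 members tested changed over the 8 stages by limma's F test, all but Sox17 (adjusted p = 0.197), and 61.8% of all genes tested did so. The smallest adjusted p was that of Shh (3.59e-09), followed by Noto (1.26e-07) and Foxa1 (3.09e-06). Stages and libraries within a stage both mattered, and the values of each library follow. With the 16 time-course libraries fitted alone, 3 members passed (Foxa2, Shh and Noto).

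Foxa2 was highest at the first stage. Its values were 19.2 and 8.24 FPKM at 72 h, 3.55 and 3.84 at 84 h, 1.39 and 5.03 at 96 h, 0.612 and 0.942 at 108 h, 6.09 and 0.930 at 120 h, 0.741 and 1.96 at 132 h, 11.3 and 10.2 at 144 h and, last, 9.49 and 9.25 at 168 h. The libraries of 144 and 168 h did not overlap those of 84 to 132 h. Foxa1, its close relative, was low at 72 h (2.05 and 0.501 FPKM), stayed under 1.5 FPKM at 84 h, 108 h and 132 h and rose to 6.99 and 5.77 at 144 h and 5.56 and 5.25 at 168 h. Foxa3, the third gene of this family, had 0.853 and 0.390 FPKM at 144 h, 0.410 and 0.639 at 168 h and 0.141 and 0.792 at 96 h, while about 1 fragment stood behind the lowest (0.0290 at 132 h). Without the filter on low values, Foxa3 passed the F test over the stages and none of the 39 other comparisons, 5 of which had an unadjusted p under 0.05.

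Sox17 was measured at 4.30 and 0.638 FPKM at 72 h, 1.78 and 1.91 at 84 h, 1.99 and 9.94 at 96 h, 1.23 and 2.24 at 108 h, 10.8 and 1.35 at 120 h, 1.00 and 1.77 at 132 h, 5.73 and 6.29 at 144 h and 3.19 and 4.27 at 168 h. The libraries of 72, 96 and 120 h lay far apart, and no stage stood apart from all others. No change of Sox17 between neighbouring stages passed the test.

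Noto had a peak of 1 stage. Its values were 0.559 and 0.118 FPKM at 72 h, 4.91 and 4.51 at 84 h and 0.214 and 0.807 at 96 h. Both libraries of 84 h lay above all other wild-type libraries. The rise from 72 h was 3.67 (SE 0.69, adjusted p = 0.000152) and the fall to 96 h -3.17 (SE 0.69, adjusted p = 0.000728) on the log2 scale, and without time-course replicate 1 the fall was -2.35 and missed the threshold. Noto was listed at 0 in 1 of the 2 libraries at each of 108, 120 and 132 h and came back to 0.437 and 0.883 FPKM at 144 h and 1.07 and 1.40 at 168 h.

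Shh was listed at 0 in both libraries of 72 h and in 1 of 84 h. The limit that a count of 0 allows, 3 fragments, was 0.0516 and 0.0619 FPKM for Shh in the libraries of 72 h, and this limit covers counting error only. Shh was at 0.146 and 0.742 FPKM at 96 h, 0.145 and 0.134 at 108 h, 1.33 and 0.0699 at 120 h, 0.0405 and 0.141 at 132 h, 2.47 and 1.91 at 144 h and 2.38 and 2.10 at 168 h. The rise from 84 to 96 h passed the test (1.97, SE 0.58, adjusted p = 0.012), but on this scale the size depends on the constant added to values near 0, and with 1 FPKM added the change was 0.47 and missed the threshold. Without time-course replicate 2 it was 0.86, and without replicate 1 it was 3.07.

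Krt8 rose to 31.8 and 31.5 FPKM at 84 h from 13.7 and 10.3 at 72 h, a change that did not pass the test. It then lay at 6.55 and 22.6 at 96 h, 3.37 and 3.68 at 108 h, 21.4 and 2.33 at 120 h, 2.54 and 4.2 at 132 h, 21.4 and 17.9 at 144 h and 16.8 and 18.6 at 168 h. Krt18, its partner, lacked the high values of 84 h (11.4 and 15.5 FPKM) and had 27.1 and 24.0 FPKM at 144 h. The ratio of Krt18 to Krt8 within a library was thus 0.360 and 0.491 at 84 h and 1.21 to 1.69 at 132 and 144 h in the wild type.

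Cldn6 fell from 60.2 and 75.9 FPKM at 72 h to 15.4 and 19.3 at 84 h (-1.96, SE 0.58, adjusted p = 0.0147, and 0.0511 without replicate 1). It was 54.4 and 6.82 at 120 h and 74.8 and 61.2 at 144 h. Trh took another course than the other members. It was already at 58.6 and 74.8 FPKM at 72 h, had 92.0 and 115 at 84 h, 72.5 and 457 at 96 h, 31.1 and 32.5 at 108 h, 116 and 27.3 at 120 h, 22.8 and 36.2 at 132 h, 70.1 and 67.1 at 144 h and 16.4 and 12.5 at 168 h. Both its falls passed the test, from 96 to 108 h (-2.51, SE 0.75, adjusted p = 0.027) and from 144 to 168 h (-2.26, SE 0.75, adjusted p = 0.0487). The first was -1.22 without replicate 2 and -3.81 without replicate 1, and the second missed the threshold without either.

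**Figure D1:**
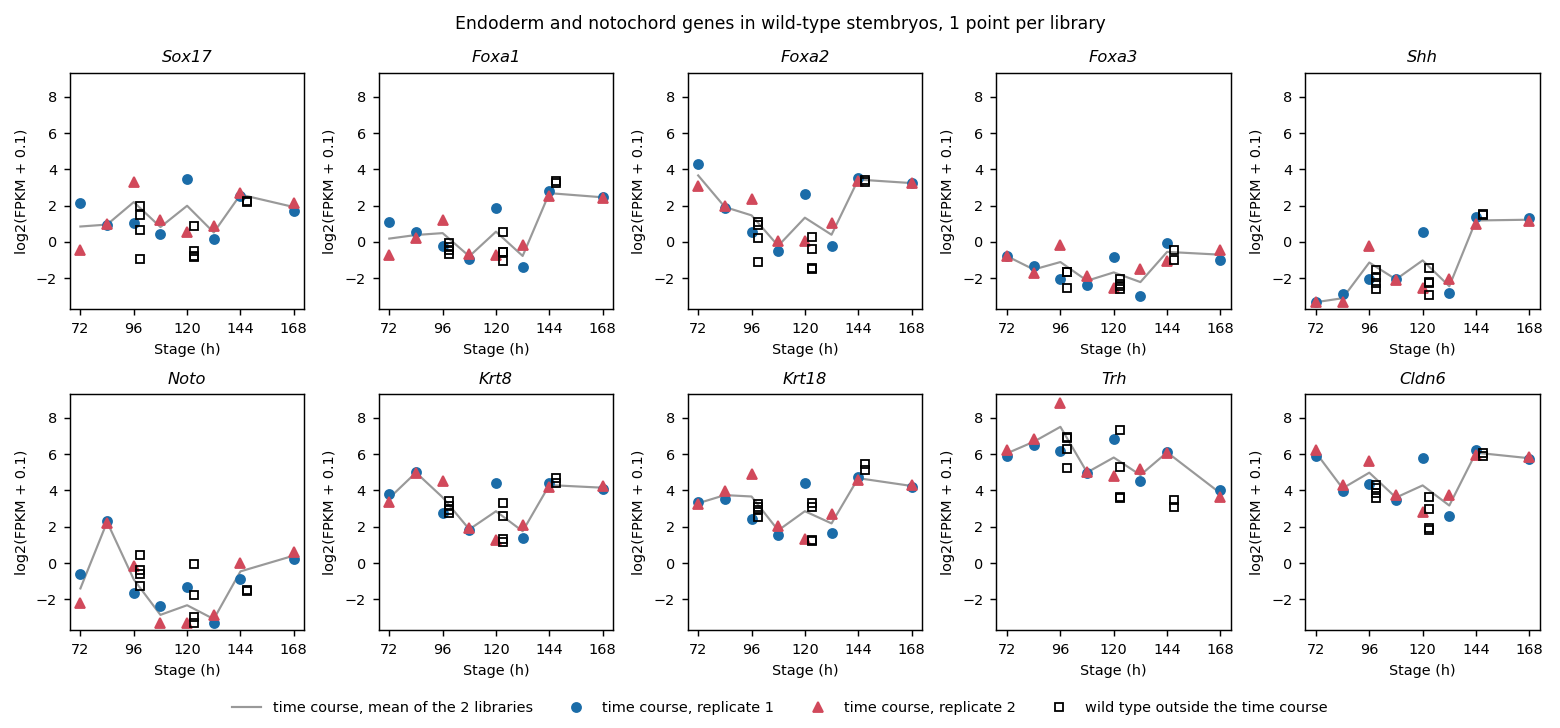
The level of each gene, as log2(FPKM + 0.1), against the stage in hours, with 1 point per wild-type library. Circles and triangles are the 2 libraries of the time course, the line joins their means, and open squares, drawn 3 h to the right, are libraries outside the time course. Foxa1, Foxa2, Shh, Krt8, Krt18 and Cldn6 rise between 132 and 144 h, and Noto peaks at 84 h.

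Between neighbouring stages, 2 of 9 members passed from 72 to 84 h (Noto up, Cldn6 down) against 16.3% of all genes tested, 2 from 84 to 96 h (Shh up, Noto down) against 20.7% and 1 from 96 to 108 h (Trh down) against 9.45%. From 108 to 120 h and from 120 to 132 h no member passed, where 7.06% and 2.46% of all genes did, and 2 members had an unadjusted p under 0.05 in each. These counts rest on the time-course libraries of 96 and 120 h. With 1 library per stage the sizes shifted, as for Trh from 96 to 108 h (-3.81 without replicate 1 and -1.22 without replicate 2). From 144 to 168 h, Trh passed and the background was 9.87%.

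The step from 132 to 144 h concerned nearly the whole set. 7 of the 9 members rose, where 5.42% of all genes tested were called. Both libraries of 144 h lay above both of 132 h for all 9, a count without a background. The median change of the members was 2.63 on the log2 scale and that of all genes 0. Shh rose by 3.62 (SE 0.58, adjusted p = 0.000106), from 0.0907 to 2.19 FPKM on average. Foxa1 rose by 3.46 (SE 0.58, adjusted p = 0.000209), from 0.536 ± 0.352 to 6.38 ± 0.858 FPKM (SD, n = 2), and Foxa2 by 3.04 (SE 0.69, adjusted p = 0.00636). Cldn6 rose by 2.91, Noto by 2.63, Krt8 by 2.54 and Krt18 by 2.49. Sox17 and Trh had higher means at 144 h without passing the test. Without time-course replicate 1, 2 of the 9 passed (Foxa1 and Shh), and without replicate 2, 6 did. The summed level of 7 endothelial markers moved at the same step, from 3.41 to 8.12 FPKM at 132 h to 30.8 to 31.5 FPKM at 144 h. Its part was not tested.

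The 2 libraries of a stage could differ more than the stages did. At 96 h all 10 members were higher in replicate 2, with a median difference of 1.78 on the log2 scale, and at 120 h all 10 were higher in replicate 1, with a median of 2.77. At 132 h all 10 were higher in replicate 2, by a median of 0.91. At 144 and 168 h the median difference was 0.26 and 0.16. The endothelial markers summed to 44.4 FPKM in replicate 1 and 2.42 in replicate 2 at 120 h, and to 6.03 in replicate 2 and 1.69 in replicate 1 at 96 h. Over all 25 conditions with 2 libraries, 9 or 10 members lay on the same side in 12. The SD of a tested member within conditions was 0.58 to 0.86 on the log2 scale, at percentiles 73.7 to 80.9 of all genes tested, whose median was 0.22.

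Over wide intervals, 2 members passed at 96 h against 72 h (Foxa2 -2.20, Shh 2.19) with 32.6% of all genes called. Without time-course replicate 1 the value of Foxa2 was -0.70, and without replicate 2 it was -3.7 while that of Shh was 1.30. At 120 h against 72 h, Foxa2 (-2.33), Shh (2.30) and Cldn6 (-1.80) passed, where the background was 42.5%. Without replicate 1 the value of Shh was 0.76 and that of Cldn6 -3.46. Without replicate 2 the value of Shh was 3.84, that of Foxa2 -1.64 and that of Cldn6 -0.15, so that Shh alone passed. At 168 h against 120 h, Foxa1 (1.90), Foxa2 (1.91), Shh (2.24) and Noto (2.73) were higher and Trh (-1.97) was lower, with 26.7% of all genes called. Without replicate 2, in which the low library of 120 h drops out, Foxa1 was at 0.62, Foxa2 at 0.63, Shh at 0.79 and Noto at 1.56, and Trh alone passed. Without replicate 1, Trh was at -1.12, Foxa1 at 3.17, Foxa2 at 3.18 and Shh at 3.7. In a fit chosen after the data were seen, without replicate 2 at 96 h and replicate 1 at 120 h, more members passed in these comparisons. That fit holds 1 library at each of these stages.

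Ratios of 2 members within a library show their balance apart from their levels, and are given as a description with no test. Foxa1 to Foxa2 was 0.0608 and 0.107 at 72 h, 0.276 and 0.385 at 84 h, 0.443 and 0.535 at 96 h and 0.566 and 0.698 at 108 h in the time course. At 120 h it was 0.587 in replicate 1 and 0.533 in replicate 2, although both genes were far higher in replicate 1. From 132 to 168 h it lay between 0.387 and 0.619. Outside the time course it was wider at 120 h, between 0.535 and 2.21. Trh to Cldn6 was 0.972 and 0.985 at 72 h, 5.95 and 5.96 at 84 h, 3.59 and 9.31 at 96 h and 0.937 and 1.10 at 144 h, and it came to 0.220 and 0.309 at 168 h. Noto to Foxa2 was 0.0143 and 0.0291 at 72 h and 1.17 and 1.38 at 84 h.

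**Figure D2:**
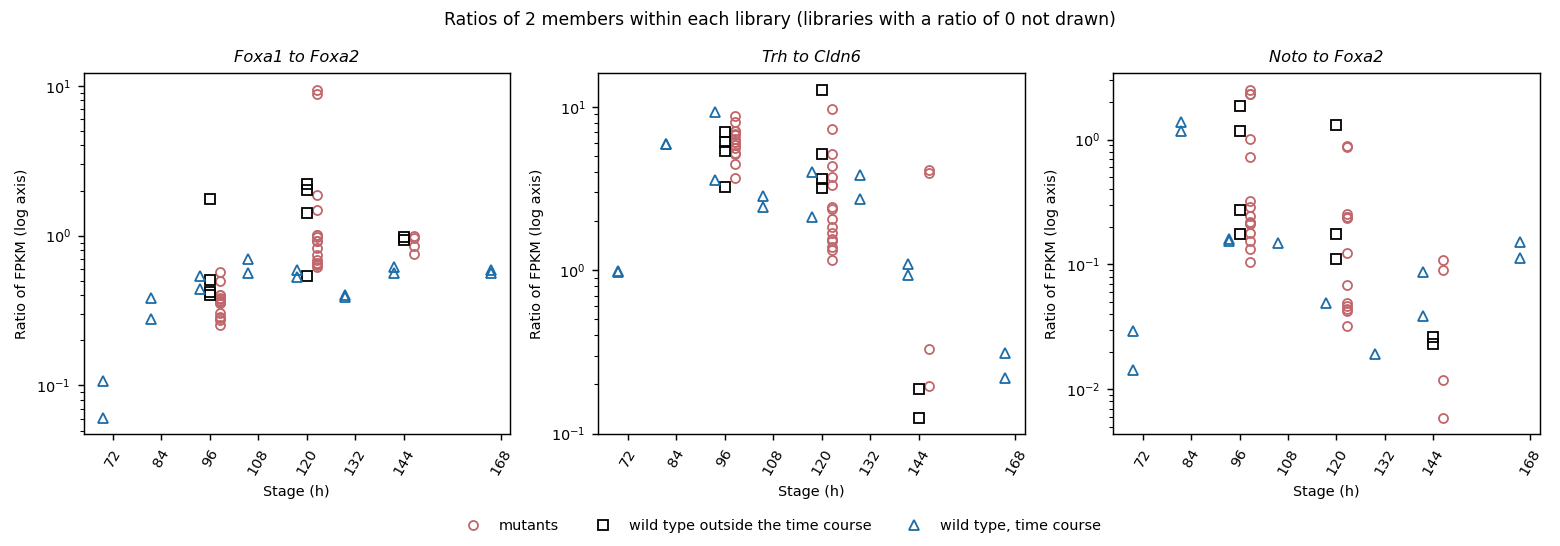
The ratio of FPKM of 2 members within each library, on a log axis, against the stage in hours, with small shifts to keep the groups apart and ratios of 0 left out. Triangles are the wild-type time course, squares wild-type libraries outside it and circles mutants. The 2 points of Del(CBS4) at 120 h stand at 8.77 and 9.44 for Foxa1 to Foxa2, where both genes were under 0.5 FPKM, and those of Del(CBS1-5) at 144 h stand at 3.97 and 4.10 for Trh to Cldn6.

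Wild-type stembryos made outside and inside the time course were compared to see how far the members moved with no mutation. At 96 h no member passed by limma, and none had an unadjusted p under 0.05, while 32.3% of all genes were called. Without time-course replicate 1, members did pass there, but that fit holds 1 time-course library of 96 h. At 120 h Sox17 (-2.30), Foxa2 (-2.11) and Cldn6 (-1.68) were lower outside the time course, where the background was 30.1%. All 3 calls rested on time-course replicate 1, without which the values were -0.84, -0.81 and -0.19. Without replicate 2 they were -3.76, -3.40 and -3.17. Each of these fits holds 1 time-course library of 120 h. At 144 h Trh differed, with 8.47 and 11.1 FPKM outside and 70.1 and 67.1 inside (-2.81, SE 0.75, adjusted p = 0.00576), and 21.5% of all genes were called. No other member passed at 144 h. Foxa2 and Cldn6 overlapped between the 2 kinds of library, while Foxa1, Shh, Krt8 and Krt18 were above and Sox17 and Noto below those of the time course, with Noto at 0.246 and 0.258 FPKM against 0.437 and 0.883.

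In the mutants, 38 of 153 tests of a member against the wild type of its stage passed, 29 higher and 9 lower, in 7 of 17 comparisons. The share of all genes called ranged from 0.193% to 40.0% over these 17. It was 40.0% in Del(sub-TAD1) at 96 h and 37.5% in Del(CBS4) at 120 h, which hold 9 and 6 of the calls. Cldn6 passed in 6 comparisons, Foxa2 also in 6, Sox17 in 5, Foxa1, Shh, Krt8 and Trh in 4 each, Krt18 in 3 and Noto in 2. Against controls of the same library set, 29 of the 153 passed. When replicate 1 of every mutant was left out, so that most mutant conditions had 1 library, assumed to vary like the others, Noto in Del(sub-TAD1) at 96 h and Cldn6 in Del(CBS4) at 120 h passed, and without replicate 2 the former alone did. No sign of the 38 calls turned in these fits.

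**Figure D3:**
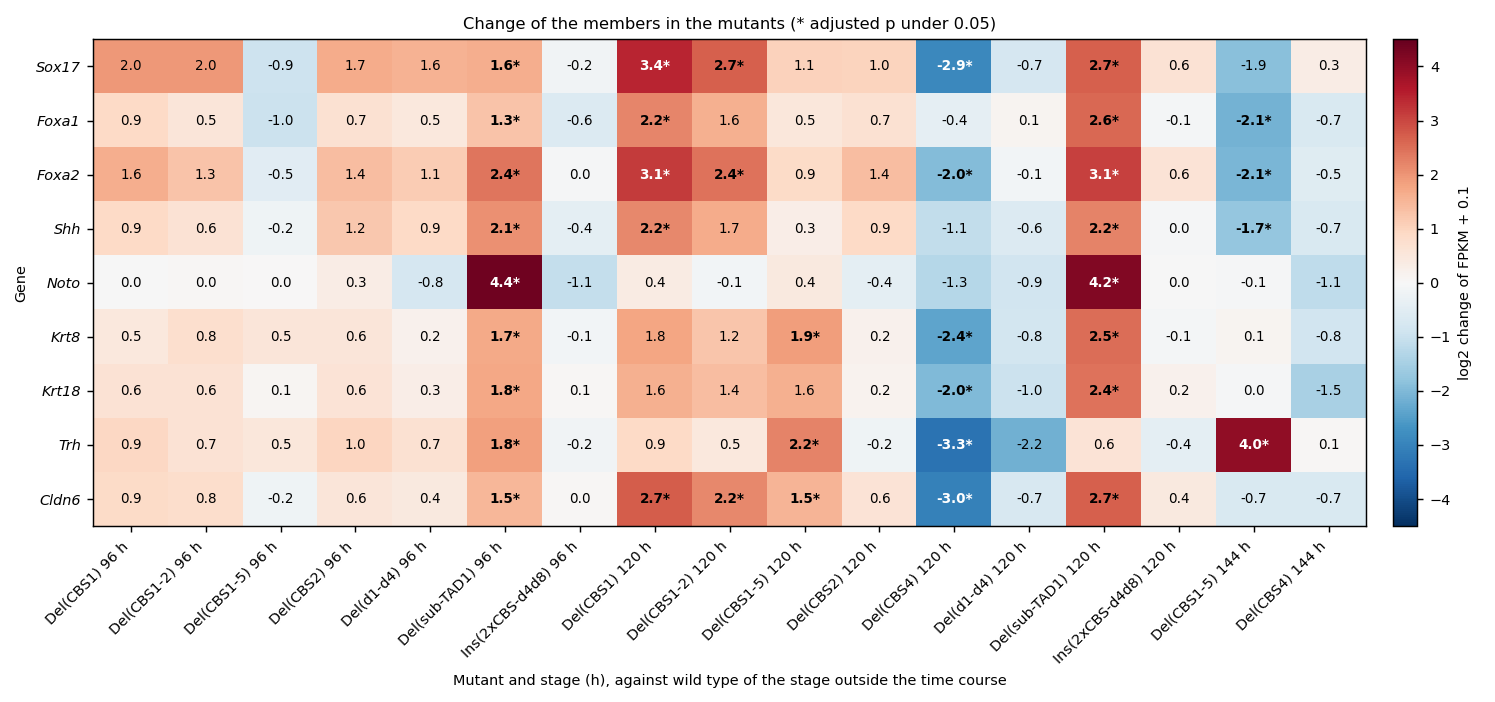
The change of each tested member in each mutant and stage against the wild type of that stage outside the time course, on the log2(FPKM + 0.1) scale, in colour and as a number. A star marks an adjusted p under 0.05 by limma. Del(sub-TAD1) at 96 h has 9 starred values and Del(CBS4) at 120 h has 6, all of them below 0.

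In Del(sub-TAD1) stembryos at 96 h all 9 tested members were higher than in the wild type, where 40.0% of all genes tested were called. Noto was at 19.2, 15.5 and 11.6 FPKM against 0.561, 0.311, 1.24 and 0.670 in the controls. Every mutant library lay above every other library of the series, and the mean was 22.1 times that of the controls (4.38 on the log2 scale, SE 0.53, adjusted p = 1.53e-07). Foxa2 was at 8.28, 6.16 and 4.98 FPKM against 0.361 to 2.06 (2.41, SE 0.53, adjusted p = 0.00067). Shh was at 1.32, 0.771 and 0.665 FPKM against 0.0682 to 0.241 (2.05, SE 0.44, adjusted p = 0.000581). Trh was at 403, 273 and 224 FPKM against 37.6 to 122 (1.84), Krt18 rose by 1.75, Krt8 by 1.71, Sox17 by 1.63, Cldn6 by 1.49 and Foxa1 by 1.30. The mutant libraries did not overlap the controls for any of the 9, a count without a background.

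With controls of the same library set, which are wt replicate 4 and the 2 time-course libraries of 96 h, 3 of the 9 passed in Del(sub-TAD1) at 96 h. These were Noto (4.66, adjusted p = 1.19e-07), Foxa2 (2.08, adjusted p = 0.0199) and Shh (1.59, adjusted p = 0.0308), and Krt8 was at an adjusted p of 0.0503. With all wild-type libraries of 96 h as controls, 5 did. Without wt replicate 4, 8 of the 9 passed and Sox17 stood at 1.05. The 3 mutant libraries also differed by more than these genes, since pluripotency markers summed to 71.0, 194 and 218 FPKM in them and to 32.3 to 121 FPKM in the controls, and the part of that was not tested. The ratio of Noto to Foxa2 was 2.32 to 2.52 in the mutant, 0.176 to 1.86 in the controls and at most 1.01 in the other mutant libraries of 96 h.

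Other genes of the node and notochord moved at that stage as well. 8 of the 9 genes of that list passed, all higher, where 40.0% of all genes tested were called. With controls of the same set 6 did. As examples chosen after their values were seen, Foxj1, a factor for motile cilia, was at 1.05 ± 0.0744 FPKM (SD, n = 3) against 0.161 ± 0.0717 (n = 4), a change of 2.17 (adjusted p = 3.92e-07). Chrd, which encodes the BMP antagonist chordin, was at 5.35 ± 1.21 against 1.35 ± 0.151 FPKM (1.89, adjusted p = 9.66e-08). Nodal was at 21.0 ± 10.1 against 3.50 ± 3.80 FPKM (2.95, adjusted p = 0.000112). Of 10 other endoderm genes tested, 4 were higher and 2 lower against the same background, and 1 and 2 with controls of the same set. Cer1, an inhibitor of Nodal that early endoderm makes, was among the lower (-2.10, adjusted p = 0.039), at 47.9 ± 76.9 against 62.2 ± 40.5 FPKM, where the mutant libraries differed widely.

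At 120 h, 8 of the 9 members were higher in Del(sub-TAD1) than in the wild type, all but Trh, where 6.15% of all genes were called. The median change was 2.59. Noto was at 5.49 and 3.29 FPKM against 0 to 0.868 in the controls (4.15, SE 0.60, adjusted p = 1.56e-05). Foxa2 was at 6.31 and 3.68 FPKM against 0.258 to 1.09 (3.07), Foxa1 at 5.25 and 3.71 against 0.374 to 1.34 (2.59) and Shh at 1.18 and 0.697 against 0.0313 to 0.262 (2.23). Krt8 rose by 2.52, Krt18 by 2.45, Cldn6 by 2.68 and Sox17 by 2.67. Trh was at 48.4 and 48.0 FPKM, inside the control range of 12 to 159. With controls of the same set 7 passed, and Sox17 was at an adjusted p of 0.0594. Endothelial markers summed to 3.73 and 4.14 FPKM in the mutant and 0.869 to 3.61 FPKM in the controls.

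**Figure D4:**
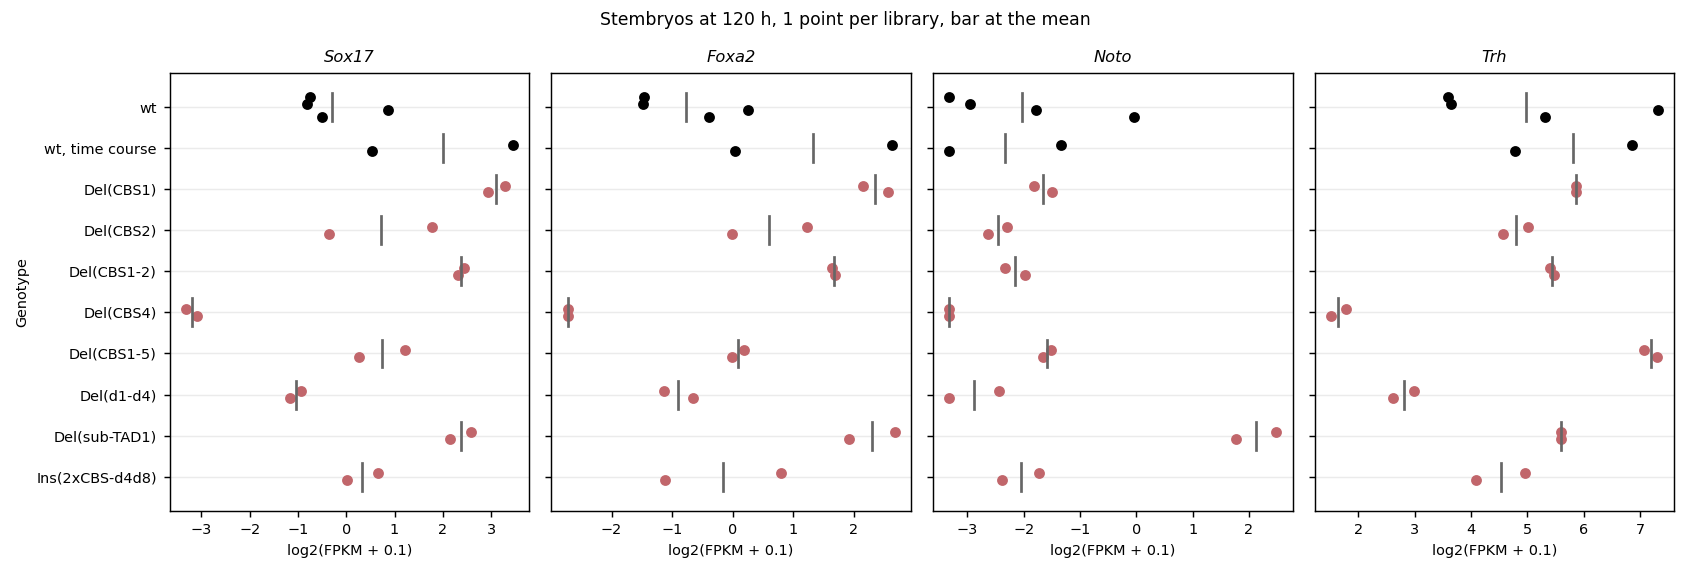
The level of Sox17, Foxa2, Noto and Trh at 120 h as log2(FPKM + 0.1), with 1 point per library and a bar at the mean of each genotype. Black points are wild-type libraries and red points mutants. Del(sub-TAD1) has the highest Noto values and Del(CBS4) the lowest values of Sox17, Foxa2 and Trh.

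In Del(CBS1) at 120 h, 5 members were higher, where 2.1% of all genes were called. Sox17 was at 9.66 and 7.53 FPKM against 0.494, 0.469, 1.71 and 0.605 (3.41, SE 0.73, adjusted p = 0.00712). Foxa2 was at 4.35 and 5.83 FPKM against 0.258 to 1.09 (3.13, SE 0.60, adjusted p = 0.00282). Cldn6 was at 37.3 and 42.1 FPKM against 3.43 to 12.5 (2.71), Foxa1 at 3 and 3.74 against 0.374 to 1.34 (2.21) and Shh at 0.863 and 0.882 against 0.0313 to 0.262 (2.18). The 5 genes also passed with controls of the same set. Noto, at 0.185 and 0.255 FPKM, lay within the control range. With the time-course libraries of 120 h among the controls Cldn6 alone passed. Endothelial markers summed to 8.89 and 13.6 FPKM in the mutant against 0.869 to 3.61, with 5 of 7 of them higher by the test (3 with controls of the same set). Pluripotency markers summed to 2.56 and 2.59 FPKM against 10.5 to 104, with 4 of 6 lower. The part of both lists was not tested.

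In Del(CBS1-2) at 120 h, which also lacks CBS1, the same direction was measured. Sox17 was at 5.33 and 4.87 FPKM (2.68, adjusted p = 0.042), Foxa2 at 3.03 and 3.14 (2.44, adjusted p = 0.0241) and Cldn6 at 24.7 and 29.1 (2.15, adjusted p = 0.0164), with 2.35% of all genes called. Both libraries were above all controls for 6 members, and the share of all genes above them was not computed. Cldn6 passed with controls of the same set, Foxa2 (adjusted p = 0.0761) and Sox17 (adjusted p = 0.191) did not, and no member passed with the time course among the controls. Of 7 endothelial markers 5 were higher (2 with controls of the same set), at a sum of 8.52 and 10.8 FPKM against 0.869 to 3.61, and of 6 pluripotency markers 5 were lower (2 with those controls), at 2.66 and 2.64 FPKM against 10.5 to 104. Their part was not tested. This mutant shares its controls with Del(CBS1).

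At 96 h neither Del(CBS1) nor Del(CBS1-2) had a member past the threshold, where 1.23% and 4.49% of all genes were called, and 2 members in each had an unadjusted p under 0.05. The values stood above all controls for 8 members in Del(CBS1), such as 6.01 and 7.32 FPKM of Sox17 against 0.422 to 3.77, and for 6 in Del(CBS1-2). Del(CBS2) had no call at 96 h (3 unadjusted) or at 120 h (1 unadjusted), with 0.298% and 0.193% of all genes called, and its libraries of 96 h were above all controls for 8 members. Its libraries of 120 h differed among themselves, with 3.35 and 0.676 FPKM of Sox17. These mutants share the 4 wt libraries of 96 h as controls, and how many of all genes lay above them was not computed.

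Del(CBS4) had the lowest levels of the set. At 120 h, 6 members were lower than in the wild type, where 37.5% of all genes were called. Sox17 was listed at 0 in 1 library and at 0.0179 FPKM in the other, and Foxa2 was at 0.0515 and 0.0510 FPKM. Shh and Noto were listed at 0 in both. Krt8 was at 0.822 and 0.614 FPKM against 2.11 to 9.67 in the controls (-2.38, SE 0.52, adjusted p = 0.000814), Krt18 at 1.24 and 0.967 against 2.2 to 9.84 (-1.97), Trh at 3.33 and 2.76 against 12 to 159 (-3.32, SE 0.65, adjusted p = 0.000241) and Cldn6 at 0.767 and 0.538 against 3.43 to 12.5 (-3.03, SE 0.50, adjusted p = 2.92e-05). Both libraries lay below all controls for 7 of the 9, and the share of all genes below them was not computed. Foxa1, at 0.451 and 0.481 FPKM, lay within the control range. With controls of the same set 7 passed, Shh being added. Sox17 and Foxa2 missed the threshold with 1 FPKM added to the values. Other epithelial genes moved there too, with 10 of 14 lower and 2 higher, and 11 lower and none higher with controls of the same set. Of 7 endothelial markers 1 was lower, and all 7 with those controls. Those controls were wt replicate 4 and the time-course libraries of 120 h. The time-course libraries differed, with endothelial sums of 44.4 and 2.42 FPKM and Shh at 1.33 and 0.0699 FPKM in replicates 1 and 2. How far these counts rest on replicate 1 was not tested.

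At 144 h Del(CBS4) had Foxa2 at 6.69 and 7.39 FPKM against 10.7 and 9.81, Cldn6 at 35.4 and 44.6 against 67.8 and 59.3 and Trh at 11.7 and 8.71 against 8.47 and 11.1, no member passed (1 unadjusted) and 2.05% of all genes were called. Both libraries still lay below both controls for 7 of the 9 members, with a median change of -0.69, and above them for Sox17. How many of all genes lay below or above both controls was not computed. The controls outside the time course were themselves low in Trh, which was at 70.1 and 67.1 FPKM inside it. The change of the effect from 120 to 144 h passed the test for Trh (3.38, SE 0.99, adjusted p = 0.0291) and Cldn6 (2.35, SE 0.76, adjusted p = 0.0488), where 8.27% of all genes passed. Without wt replicate 1 neither passed, at 3.64 and 2.67, and Cldn6 also missed the threshold without wt replicate 2 or 3.

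Del(CBS1-5) differed between stages. At 96 h no member passed, at 14.8% of all genes called, and none had an unadjusted p under 0.05. At 120 h Krt8 (16.4 and 14.9 FPKM against 2.11 to 9.67, a change of 1.89, adjusted p = 0.0141), Trh (134 and 157 against 12 to 159, 2.22, adjusted p = 0.0198) and Cldn6 (18.4 and 16.2 against 3.43 to 12.5, 1.52, adjusted p = 0.038) were higher, with 13.3% of all genes called. The Trh values overlap those of wt replicate 3, which also had the highest pluripotency markers of its group (104 FPKM against 10.5 to 24.3 in the others). Other markers moved at 120 h as well, and their part was not tested. All 7 endothelial markers were higher (5 with controls of the same set), at a sum of 14.9 and 12.1 FPKM against 0.869 to 3.61. The 3 visceral endoderm markers tested were all higher as well (2 with those controls). The full list of 8 such markers summed to 30.6 and 19.8 FPKM against 1.46 to 13, and only Rhox5 in it ever passed 2.5 FPKM. Of 6 pluripotency markers 4 were higher, at a sum of 161 and 183 FPKM. With controls of the same set 2 members passed, Krt8 and Krt18, and without wt replicate 1 or 2 none did (Krt8 1.63 and 1.58).

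At 144 h the set split in Del(CBS1-5). Foxa1 was at 2.00 and 2.39 FPKM against 9.99 and 9.59 (-2.11, SE 0.58, adjusted p = 0.00619), Foxa2 at 2.02 and 2.82 against 10.7 and 9.81 (-2.06, SE 0.69, adjusted p = 0.027) and Shh at 0.944 and 0.617 against 2.74 and 2.8 (-1.73, SE 0.58, adjusted p = 0.0258). Trh was instead at 155 and 159 FPKM against 8.47 and 11.1, 16.1 times the mean of the controls (a log2 change of 4, SE 0.75, adjusted p = 9.66e-05). The values of Krt8 and Krt18 overlapped those of the controls. With the time-course libraries of 144 h among the controls, which have more Trh, its change was 2.60 (adjusted p = 0.0101), and the same 4 members passed. 23.7% of all genes were called. Foxa2 (-1.99 and -2.12) and Shh (-1.75 and -1.72) missed the threshold without wt replicate 1 or 2, fits with 1 control library.

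Markers of other cells moved with these values in Del(CBS1-5). Pluripotency markers summed to 315 and 324 FPKM at 144 h against 4.09 and 6.33, and Pou5f1 was at 203 FPKM on average. The list of 8 visceral endoderm markers summed to 46.9 and 55.7 FPKM against 3 and 3.51, of which 43.4 and 53.2 FPKM were Rhox5, while Afp, Apob, Amn and Cubn stayed under 1 FPKM in all 61 libraries and Ttr and Apoa1 reached 1 FPKM in 2 each. Their part in the change of the members was not tested. The difference between the effect at 144 h and at 120 h passed the test for Foxa1 (-2.61, SE 0.77, adjusted p = 0.0306) and Foxa2 (-2.92, SE 0.92, adjusted p = 0.0452), where 7.07% of all genes passed. Neither passed without wt replicate 1 (-2.36 and -2.63) or 2 (-2.59 and -2.75).

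Del(d1-d4) and Ins(2xCBS-d4d8) had no member past the threshold. In Del(d1-d4), 1.19% of all genes were called at 96 h and 1.85% at 120 h, and 1 member had an unadjusted p under 0.05 at each stage. Its Trh was at 7.88 and 6.07 FPKM at 120 h, below all controls (-2.16, SE 0.65, adjusted p = 0.0757), and 1 member passed without wt replicate 1 or 2. In Ins(2xCBS-d4d8), 27.9% of all genes were called at 96 h and 26.9% at 120 h, and no member had an unadjusted p under 0.05 at either stage. Its Foxa2 was at 0.758 and 1.52 FPKM at 96 h and at 1.64 and 0.363 at 120 h, overlapping the controls.

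No effect of a mutant on a member was shown to differ between 96 and 120 h. The shares of all genes called for such a difference were 0.175% in Del(CBS1-2), 0.257% in Del(CBS1-5), 0.0526% in Del(CBS1), 0.0117% in Del(CBS2), 0.0234% in Del(d1-d4), 23.6% in Del(sub-TAD1) and 0.392% in Ins(2xCBS-d4d8), and the members with an unadjusted p under 0.05 were 2 in Del(CBS1-5), 1 in Del(CBS1), 3 in Del(d1-d4) and 0 in the others.

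The other genes of these lineages were read from lists of 9, 11, 15 and 14 genes. Of the node and notochord list, all 9 were tested, and 2 were higher and 6 lower at 120 h than at 72 h, where 42.5% of all genes were called. Gsc, a homeobox factor of the anterior streak, fell by 5.84 on the log2 scale (from 21.7 to 0.186 FPKM on average) and Nodal by 4.89, while Pkd1l1 rose by 1.64 and Nog, a BMP antagonist, by 1.38. At 168 h against 120 h, T, the brachyury gene of streak and notochord, fell by 2.28 (from 48.8 to 9.79 FPKM) and Dand5 by 0.87, and Nog rose by 1.5. At 96 h against 72 h 2 were higher and 5 lower. The share of all genes called was 26.7% at 168 h against 120 h and 32.6% at 96 h against 72 h, and these backgrounds and the 42.5% above hold for the lists below as well.

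Of the other endoderm genes, 10 of 11 were tested, and 5 were higher and 4 lower at 120 h than at 72 h. Cer1 rose by 3.94, while Mixl1 fell by 7.47 (from 244 to 1.33 FPKM) and Eomes by 7.28. At 168 h against 120 h none rose and 3 fell, Cer1 by 4.97 and Mixl1 by 2.15. At 96 h against 72 h 5 were higher and 2 lower.

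Of the hedgehog pathway, 14 of 15 genes were tested. At 120 h 11 were higher than at 72 h, against the background of 42.5%, with Boc (3.70) and Gas1 (2.18), co-receptors of the ligands, the leading rises, and 1 was lower. At 168 h against 120 h Hhip (1.69) and Ptch1 (1.26) rose, and Cdon (-1.02) and Disp1 (-0.85) fell. At 96 h against 72 h 6 were higher and 1 lower. In the mutants 4 hedgehog genes were higher in Del(CBS1) at 120 h and 5 in Del(sub-TAD1) at 120 h, where 2.1% and 6.15% of all genes were called, the same counts as with controls of the same set. As examples chosen after their values were seen, Gli1 was at 9.57 ± 0.764 FPKM (SD, n = 2) in Del(CBS1) and 6.42 ± 1.02 in Del(sub-TAD1) against 1.83 ± 0.780 (n = 4), and Ptch1 at 25.7 ± 1.88 and 25.0 ± 3.45 against 9.88 ± 2.00. In Del(CBS1-5) at 144 h Ptch1 was lower, at 18.8 against 45.2 FPKM on average (-1.26, adjusted p = 7.23e-05). In Del(sub-TAD1) at 96 h, 5 hedgehog genes were higher and 1 lower, where 40.0% of all genes were called. With controls of the same set 2 were higher and 4 lower. In Del(CBS4) at 120 h 2 were higher and 0 lower (0 and 3 with those controls), against 37.5%.

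Of the simple epithelium list all 14 genes were tested. At 96 h against 72 h 11 were lower and none higher, against 32.6% of all genes called, and at 120 h against 72 h, against 42.5%, 11 were lower and Krt7 (2.10) was higher. Cdh1, the E-cadherin gene, fell by 4.65 (from 178 to 8.64 FPKM) and Esrp1, a splicing factor of epithelia, by 4.14. At 168 h against 120 h 3 were higher, with Cldn3 (3.26) and Krt19 (2.61) leading. In the mutants 9 were higher in each of Del(CBS1), Del(CBS1-5) and Del(sub-TAD1) at 120 h, where 2.1%, 13.3% and 6.15% of all genes were called. With controls of the same set 9, 9 and 10 were. In Del(sub-TAD1) at 96 h 7 were higher, and 0 with controls of the same set, where 40.0% of all genes were called. In Del(CBS1-2) at 120 h 3 were higher, and 0 with those controls, against 2.35%. Over all 17 mutant comparisons the calls were 52 higher and 12 lower in this list, 24 and 10 in the node and notochord list, 15 and 9 in the endoderm list and 23 and 10 in the hedgehog list. With controls of the same set they were 36 and 12, 16 and 5, 10 and 6, and 17 and 15 in the same order. The share of all genes called ranged from 0.193% to 40.0% over these comparisons.

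Floor plate, another source of Shh and Foxa2, was read from 5 markers, of which 3 were tested. In the mutants 1 was higher in Del(CBS1) at 120 h, where 2.1% of all genes were called. The same count was higher in Del(sub-TAD1) at 96 and 120 h, against 40.0% and 6.15%. In Del(CBS4) at 120 h and Del(CBS1-5) at 144 h 2 were lower (2 and 1 with same-set controls), against 37.5% and 23.7%. Over all 17 mutant comparisons 4 calls were higher and 6 lower, and 4 and 5 with controls of the same set. Their part was not tested. Nkx2-2 never passed 0.335 FPKM in any library, Ntn1 was at 8.80 FPKM or more in all, and from 120 to 168 h Nkx6-1 rose by 4.81 and Ntn1 fell by 0.74, from 72.6 to 43.1 FPKM on average. Of the surface ectoderm markers, Tfap2a, Trp63, Krt5 and Krt14 stayed under 1 FPKM in all libraries, while Grhl3 was at 1 FPKM or more in all 61, up to 14.0 FPKM, and Tfap2c in 31, up to 9.79 FPKM.

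Over the 28 condition means, the patterns of the members were compared by Pearson's r of log2(FPKM + 0.1), as a description. Conditions share libraries of the same sets and stages, so the points are not independent. Krt8 and Krt18 were the most alike pair of members (r = 0.95), followed by Foxa2 and Cldn6 (0.94), Foxa3 and Cldn6 (0.90) and Foxa1 and Shh (0.90). Trh and Foxa1 had the lowest value (-0.11), and Noto was nearest to Krt8 (0.71).

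Outside the set, genes close to Foxa2 included Fgf14 (0.86) and Grb7 (0.85). Genes close to Cldn6 included Grb7 (0.89), and those close to Foxa3 included Flt1 (0.87) and Grb7 (0.86). Foxa1 was closest to Ptch1 (0.93), Atp2c2 (0.92) and Gm45623 (0.89), and Shh to Kcnk16 (0.95), Ptch1 (0.93) and Krt7 (0.91). Sox17 was closest to Tmprss2 (0.86), Slc39a8 (0.85) and Upk3a (0.80). Noto, with the lowest values, was closest to Bicc1 (0.81), Crybg1 (0.79) and Creb3l1 (0.79). Krt8 was closest to Cobl (0.93), Gpx2 (0.89) and Grb7 (0.89), Krt18 to Flt1 (0.89), Fhl2 (0.89) and Gpx2 (0.88), and Trh to Dapp1 (0.87), Fkbp11 (0.86) and Tead4 (0.86).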

How the data were processed

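RNA of pooled stembryos was made into stranded poly-A libraries and sequenced as paired ends of 75 bases. The authors used cutadapt 1.16 for trimming, STAR 2.7.7a for alignment to mm10, reads with 1 place, and Cufflinks 2.2.1 on gene models based on Ensembl 102. What they deposited is FPKM for each gene and library, scaled by transcript length and mapped fragments. Where a gene identifier had several lines (25 identifiers), these were added up. Depth was inferred from the bounds that Cufflinks wrote beside low values.

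Log2(FPKM + 0.1) of the 61 libraries was fitted with limma 3.58.1 in R 4.3.3, 1 coefficient per condition, on 17098 genes with a mean of at least 1 FPKM in at least 1 condition. Tests were two-sided, and p-values were adjusted (Benjamini-Hochberg) across these genes separately for each comparison, a call needing less than 0.05. In simulated data for Del(CBS1) at 96 h over 17098 genes, 66% of changes of 1 and 73% of changes of 2 on the log2 scale were recovered. The changed genes were drawn from all genes tested, without library sets. The members varied more, with an SD of 0.58 to 0.86 against a median of 0.22, so recovery for them was not measured. Groups and replicate numbers came from the sample titles. Replicate numbers did not pair the libraries, since the deviations of 1 of 28 same-numbered pairs of the time course, and of 2 of 190 others, correlated at over 0.1.

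All members are described. The 3 genes most like each member, and the 2 largest rises and falls of each list, were named by rule, apart from some genes that are not reported here, and other named genes are marked. The members and lists were chosen with earlier results of these data known. Values were also computed with Python 3.11.15, pandas 2.3.3 and numpy 2.4.6, and figures drawn with matplotlib 3.10.9. The other assays of the study were not used here.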

Additional observations from a re-analysis of the deposited data

Results flagged for a closer look

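Of 20 groups of 4 wild-type values tested for a library far from the others, 2 had one, and chance alone flags about 1 in 20 groups. Sox17 at 120 h was at 1.71 FPKM in wild-type replicate 3, well above the other 3 libraries. Foxa3 at 96 h was at 0.0734 FPKM in wild-type replicate 4, which is about 3 fragments, below the other 3.

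The effect of a mutant differed between stages by the test of the difference itself in 4 cases. In Del(CBS1-5) the effect on Foxa1 changed by -2.61 and that on Foxa2 by -2.92 on the log2 scale from 120 to 144 h. In Del(CBS4) the effect on Trh changed by 3.38 and that on Cldn6 by 2.35 over the same interval.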

How the results depend on the processing

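The counts of members called were recomputed under other settings. No single call changed its direction in any of the 1026 repeats of called values, of which 805 also kept their side of the threshold and 221 lost it. The 805 include repeats that left the compared libraries as they were. Leaving out mutant replicate 3, for example, took a library from Del(sub-TAD1) at 96 h alone. The 805 therefore do not measure how well the calls hold. With the time-course libraries fitted alone, 3 members changed over the stages, 2 calls were made between neighbouring stages and 1 over wide intervals, against 8, 13 and 10. With time-course libraries among the controls, 25 mutant calls were made against 38. Changes of effect between stages gave 1 call without the filter on low values and 8 with only libraries outside the time course, against 4. Without the high libraries of 96 and 120 h, chosen after seeing the data, 1 call was made between wild types outside and inside the time course, against 4.

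Leaving out 1 replicate number at a time gave 7 to 9 members changing over the stages, 10 to 23 calls between neighbouring stages and 3 to 14 over wide intervals. It gave 1 to 40 mutant calls, 0 to 5 changes of effect and 4 to 9 calls between the wild types. The time-course fits here hold 1 library per stage. The low ends of the mutants and effects are fits with 1 library per mutant condition.

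With the replicate number as a block, the counts were 8 over the stages, 16 between neighbouring stages, 11 over wide intervals, 37 in the mutants, 4 changes of effect and 3 between the wild types. The libraries share only a number, and whether it pairs them is not known. Depth limits the low members, since 3 fragments stand for 0.0282 to 0.0732 FPKM of Shh and 0.0395 to 0.102 FPKM of Foxa3, depending on the library.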
